A study of Mus musculus with 18 samples.

Results

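The arrays described here are those of hearts of FVB mice, an inbred laboratory strain, without the transgene, at 3 weeks of age. They were taken by their titles, which carry the strain, the age, the letter f or m (read as female and male) and a replicate number. Such a title is carried by 6 of the 18 columns deposited, 3 of females and 3 of males. The columns of FVB female 1 and female 2 hold the same value for each probe set and were counted as 1 array, which leaves 5 distinct FVB arrays of 17. That array is called FVB female 1 and 2 throughout.

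The study hybridised total RNA of mouse heart to Affymetrix U74Av2 arrays, which carry short oligonucleotide probe sets for mouse transcripts. Its subject is heart failure in mice that carry a TNF-alpha transgene specific to the heart. The other columns are transgenic hearts of 3 weeks (3 females and 3 males), 13 weeks (3 males) and 40 weeks (3 females). Only the transgenic hearts of 3 weeks match the FVB hearts in age, and they alone are compared with them here. Neither the promoter that drives the transgene nor the litter, the part of the heart taken or a pooling of hearts is given in the labels. Where nothing says that arrays came from separate animals, a p-value measures the spread between these arrays, which may be technical.

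A ventricular heart muscle cell contracts through myosin motors that pull on actin filaments, switched on when calcium binds troponin. Calcium is let in by L-type channels, released from internal stores by ryanodine receptors and pumped back by SERCA. Nearly all of the ATP comes from mitochondria, mainly from fatty acids, and many of the proteins involved exist as isoforms that differ between heart, skeletal muscle and other tissues, and between the fetal and the mature heart.

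Each array had a trimmed mean signal close to 500 units (499.6 to 500.7 on the FVB arrays), so signals are relative to the mean of their own array. The floor used here, 44.9 units, is the 25th percentile of all values of the distinct arrays, and a probe set at or below it is called at the floor. The array of FVB female 1 and 2 stood apart. Its Spearman correlation with the other 4 FVB arrays lay between 0.838 and 0.856 over the 12422 probe sets that are no controls, while the 4 correlated at 0.956 to 0.964 among themselves. The median signal of 19 control probe sets for Bacillus and yeast genes was 81.1 on it and 9.2 to 19.8 on the other 4, and 7.47% of its probe sets were at the floor against 25.1 to 27.8%. Ranks are therefore given over the 5 arrays and, where it matters, over the other 4.

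Titles and sex-linked genes did not match on every FVB array. Xist, the RNA that coats the inactive X chromosome of female cells, read 2075 on FVB female 1 and 2, 1159 on female 3, 1381 on the array titled male 1, 2706 on that titled male 2 and 5.9 on male 3. Only male 3 was without Xist signal. Eif2s3y, a Y-linked translation factor gene, read 115, 40.9, 299, 67.4 and 545 in the same order, and Uty, another Y-linked gene, 37.2, 11.8, 130, 16.9 and 228. The array titled male 2 thus had Xist signal with Uty below the floor, and that titled male 1 had signal of both chromosomes. These 2 arrays are named here by their titles, and the counts of calls, the array measures tested and the named sex differences are also given without them.

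A signal depends on how well a probe set hybridises as well as on how much RNA is present, so the ranks below describe signals and are not an order of transcript abundance. Among 2073 genes with 2 or more probe sets the brightest and the dimmest differed by a median of 1.63 on the log2 scale, and for 872 of them (42.1%) by over 2. Genes that every cell needs can have a dim probe set: the ribosomal protein gene Rps15 was at the floor on all 5 arrays and Rpl39 ranked 11007. For a gene with several probe sets the one of highest mean over the 17 distinct arrays was used, which left 8251 genes.

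The brightest signals of the FVB heart came from sarcomere and mitochondrial genes. Troponin I of cardiac muscle, Tnni3, ranked first, with a signal of 45714 on FVB female 1 and 2, 41102 on female 3, 31780 on male 1, 29888 on male 2 and 49776 on male 3 (geometric mean 38879, SD 0.32 on the log2 scale, n = 5). Alpha myosin heavy chain, Myh6, the fast cardiac motor, ranked 2 with 43821, 40653, 28767, 29130 and 50735 in the same order. Both genes read lowest on male 1 and male 2 and highest on male 3. Rank 3 belongs to a probe set annotated to several genes, which is not named.

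The myosin light chains of the ventricle followed, Myl3 at rank 4 and Myl2 at rank 5. Myoglobin (Mb), the oxygen store of muscle, ranked 6, and Slc25a4, the muscle form of the carrier that exchanges ATP for ADP across the inner mitochondrial membrane, ranked 7 (geometric means 32196 and 32107). The thin filament genes Tnnt2, Actc1 and Tnnc1 ranked 14, 16 and 18, and Mybpc3, cardiac myosin binding protein C, ranked 17. Ckmt2, the mitochondrial creatine kinase of muscle, ranked 20 and Atp2a2, the cardiac SERCA pump, 36. Besides Slc25a4 and Ckmt2, 12 of the 30 genes of highest rank serve in mitochondria: Ndufb5, Cyc1, Cox6a2, Atp5md, Chchd10, Atp5l, Atp5a1, Uqcrq, Cox6c, Ndufa5, Mdh2 and Ndufb2. The rest were Tpt1, Hba-a1 of red blood cells, the ribosomal protein genes Rpl41 and Rps24, Gnas and Wdr92.

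Within this group neighbouring ranks differed by less than the spread between arrays. The geometric mean signal fell from 38879 at rank 1 to 22433 at rank 30, a ratio of 1.73, while the median SD of a probe set among the brightest 100 was 0.25 on the log2 scale over 5 arrays and 0.24 over 4. Ckmt2, for example, held ranks between 17 and 22 on the single arrays, Hba-a1 between 8 and 24, and Wdr92 between 18 and 89. Membership was steadier than order: 96 of the brightest 100 probe sets were the same over 5 and over 4 arrays, and each array's own brightest 100 shared 91 to 93 with the ranking over all 5. In the plot of the 30 brightest genes the arrays of male 1 and male 2 lie to the left of male 3 for each gene shown.

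**Figure D1:**
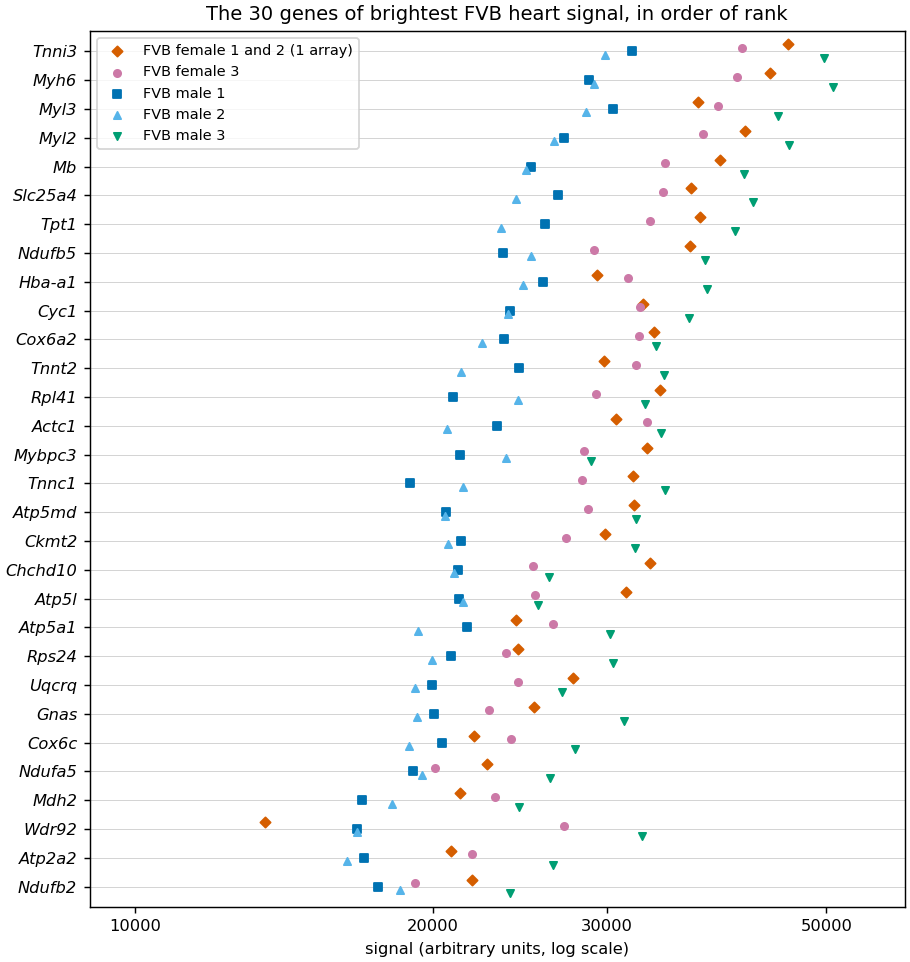
Signal (arbitrary units, log axis) of the 30 genes of highest rank on each of the 5 distinct FVB arrays, in order of rank from the top. Points are single arrays: male 1 and male 2 read lowest for most genes, as for Tnni3 (31780 and 29888) against 49776 on male 3.

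Signal fell steeply below the top. It was 12337 at rank 100, 2666 at rank 621, the limit of the brightest 5%, and 177 at the middle rank. The brightest 100 probe sets of an array held 23.0% of its summed signal on FVB female 1 and 2, 22.3% on female 3, 19.3% on male 1, 19.01% on male 2 and 24.0% on male 3 (mean 21.5% ± 2.27, SD, n = 5). Male 1 and male 2 were the lowest, and the mean over the 4 arrays other than FVB female 1 and 2 was 21.2% ± 2.43 (SD, n = 4). Of these 100 probe sets 79 carry 1 gene symbol, 14 several and 7 none.

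**Figure D2:**
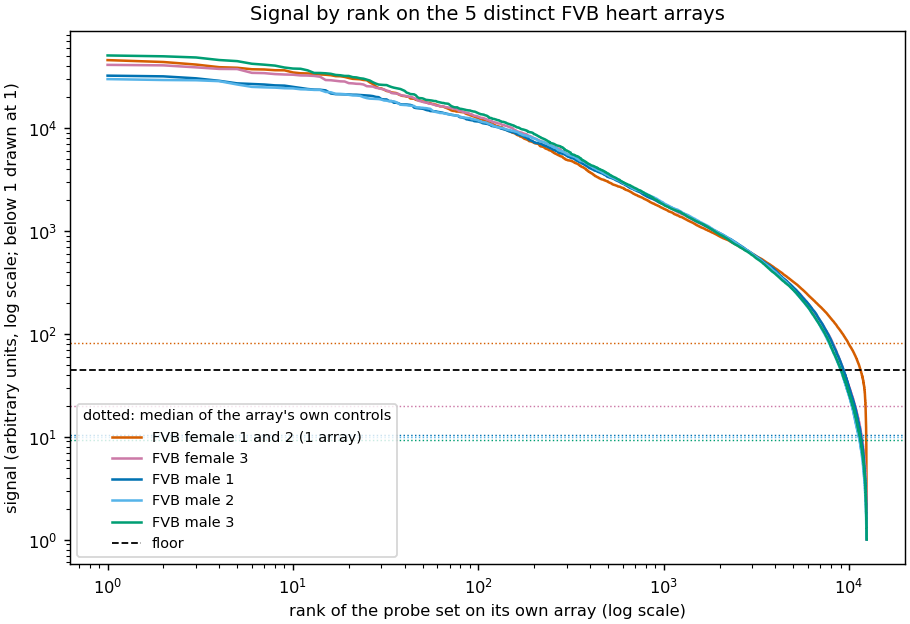
Signal against the rank of each probe set on its own array for the 5 distinct FVB arrays, both axes on a log scale, with the floor of 44.9 dashed and the median of each array's Bacillus and yeast controls dotted. The curves meet in the middle ranks; at the dim end FVB female 1 and 2 stays above the others, as its control median of 81.1 does.

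The DNA just upstream of these genes can be set beside their signals. The 50 bases before the RefSeq start are shown for the 4 brightest contractile genes with an entry in the promoter table and the 4 brightest such genes of ATP synthesis and its carrier (GRCm38.p6, 5′ to 3′ on the gene's strand, CG dinucleotides in capitals), because the number of CG dinucleotides separates many of them.
Tnni3 (chr7:4522529-4522578, minus strand): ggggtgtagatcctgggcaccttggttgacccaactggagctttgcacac
Myh6 (chr14:54966608-54966657, minus strand): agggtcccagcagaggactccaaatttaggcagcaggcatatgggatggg
Myl3 (chr9:110763628-110763677, plus strand): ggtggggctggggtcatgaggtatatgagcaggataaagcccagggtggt
Myl2 (chr5:122092674-122092723, plus strand): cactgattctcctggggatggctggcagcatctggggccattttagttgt
Slc25a4 (chr8:46211063-46211112, minus strand): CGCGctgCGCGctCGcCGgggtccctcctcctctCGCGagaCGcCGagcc
Ndufb5 (chr3:32737013-32737062, plus strand): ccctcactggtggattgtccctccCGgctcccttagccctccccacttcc
Atp5md (chr19:47090648-47090697, minus strand): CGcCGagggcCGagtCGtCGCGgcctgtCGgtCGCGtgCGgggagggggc
Atp5l (chr9:44920743-44920792, minus strand): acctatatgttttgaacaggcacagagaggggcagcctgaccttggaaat
The stretches of the 4 contractile genes hold no CG, nor does that of Atp5l, while Slc25a4 and Atp5md have 10 each and Ndufb5 has 1. In the full 250 bases before the start Tnni3 has 3, Myh6 2, Myl3 1 and Myl2 1, against 18 for Slc25a4, 13 for Ndufb5, 32 for Atp5md and 7 for Atp5l. Among other mitochondrial genes of the top 30, Ckmt2 has 2 and Chchd10 5. Of the 10 contractile family genes in the brightest 1% all have an entry and 0 have 10 or more CG in those 250 bases, with a median of 2.5. Of 36 respiratory chain and ATP synthase genes in the brightest 1% an entry was found for 27, and 18 of these (66.7%) reach 10, with a median of 12. Over all 6576 genes of the array with an entry 66.1% do, with a median of 14. The wider contractile list has 17 of 48 (35.4%), with a median of 5. These are counts over the windows only, and no test was made of them.

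The isoform families show which member of each has the bright probe set. Over 3 kinds of family, contractile, excitation and calcium, and metabolic, 189 genes had a probe set. Of these 60 (31.7%) lay in the brightest 5% against 509 of all 8251 genes (6.17%), 145 (76.7%) were above the floor on all 5 arrays against 72.6% of all genes, and 5 were at the floor on all 5.

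Among 11 myosin heavy chains Myh6 stood at rank 2 and Myh7, the slow beta chain of the fetal heart, at rank 226. Myh7 read 11523 on FVB female 1 and 2, 7796 on female 3, 5511 on male 1, 5073 on male 2 and 6592 on male 3. The 2 distinct arrays titled female read above the 3 titled male, of which 2 carry Xist signal, so this is a split by title. Myh7 was highest on the array that stands apart. Its probe set is of a type (_f_at) that can bind related genes, so some of that signal may belong to other chains. The skeletal chains Myh1 and Myh3 (embryonic) were at the floor on all 5 arrays, and Myh2 and Myh8 on all but FVB female 1 and 2. Myh4, also a skeletal chain, ranked 4847 and was above the floor on all 5, with 202 to 606. Myh9, the non-muscle chain, ranked 1289 and the smooth muscle chain Myh11 ranked 4199.

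The light chains and the troponins divide in the same manner. Besides Myl2 and Myl3, the atrial chains Myl4 and Myl7 ranked 891 and 926 and the skeletal chain Myl1 1045, while Mylpf of fast skeletal muscle ranked 6280. Troponin I of slow skeletal muscle, Tnni1, which the fetal heart also uses, ranked 3683 with 601, 396, 316, 377 and 581 on the arrays in order, and the fast form Tnni2 ranked 9588. For troponin T the cardiac Tnnt2 at rank 14 stood over the slow Tnnt1 at 2473 and the fast Tnnt3 at 10485, and for troponin C the cardiac Tnnc1 at 18 over the fast Tnnc2 at 7773.

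Actins were bright in several forms. Cardiac Actc1 ranked 16, cytoplasmic Actg1 150, skeletal Acta1 324 and smooth muscle Acta2 687. Acta1 read 6064, 6297, 3274, 4047 and 5931 on the arrays in order, lower on male 1 and male 2 than on the other 3. Tropomyosin was dim for a sarcomere gene: Tpm1, the cardiac form, ranked 2705 and Tpm4 440. Of alpha-actinins the muscle form Actn2 ranked 3649 with 1363 on FVB female 1 and 2 and 253 to 503 on the other 4. Z disc genes with bright probe sets were Csrp3 (rank 86), Ankrd1 (114) and Ldb3 (187).

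The calcium pumps and the calcium release channels each had 1 isoform in the brightest 5%. Atp2a2 at rank 36 read 20849, 21886, 17019, 16380 and 26444 on the arrays in order, while Atp2a3 ranked 3726 and the skeletal pump Atp2a1 6324. The ryanodine receptor of heart, Ryr2, ranked 220 and had the smallest spread of the genes above the floor named here, with 7061, 7018, 6943, 7167 and 7128 (SD 0.02 on the log2 scale). Ryr3 ranked 5727, and the skeletal Ryr1 was at the floor on all but FVB female 1 and 2.

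Calsequestrin, which stores calcium, is an exception to the order of the names. The probe set of the skeletal gene Casq1 ranked 279 and that of the cardiac gene Casq2 1902. Casq1 read 3340 on FVB female 1 and 2 and 6374 to 7174 on the other 4, and Casq2 read 1310 on the former and 845 to 916 on the latter. Of 14 skeletal muscle markers Casq1 and the creatine kinase gene Ckm were the only ones in the brightest 5%, with Pvalb at 2122 and Myod1 at 4515. The gap junction gene Gja1 ranked 65 among 9 connexins, of which Gja5 of the atria and conduction tissue ranked 6822.

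Natriuretic peptides, hormones of stretched heart muscle, were present: Nppb ranked 264 and Nppa 970. Voltage gated sodium channels were dim, and their cardiac member is not analysed here. Of 9 measured calcium channel subunits Cacna1c, the L-type pore of heart, ranked 693 and Cacnb2 2047.

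**Figure D3:**
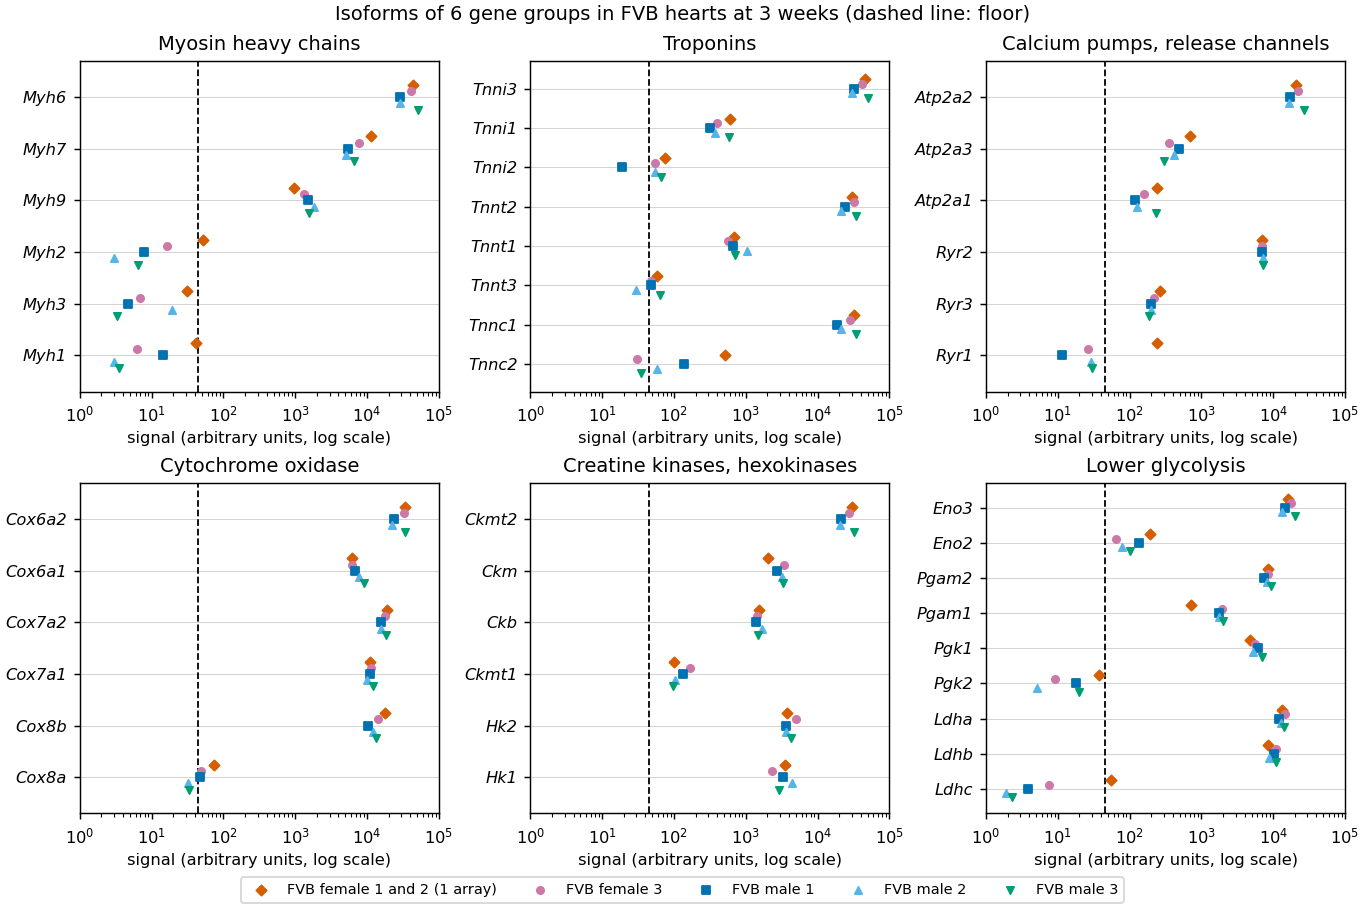
Signal (arbitrary units, log axis) of isoforms of 6 gene groups on each of the 5 distinct FVB arrays; the dashed line is the floor of 44.9. Tnni3 reads 29888 or more and Atp2a2 16380 or more on each array, and Myh1, Myh3 and Pgk2 lie below the floor, while Hk1 and Hk2 overlap.

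In metabolism the muscle form of an enzyme usually had the brighter probe set, but not without exception. Cox6a2, the heart and muscle form of a cytochrome oxidase subunit, ranked 13 against 217 for the liver form Cox6a1, and Cox8b 87 against 10652 for Cox8a. For Cox7a the widely used form Cox7a2 ranked 48, ahead of the muscle form Cox7a1 at 117. Cox7a1 read 11078, 11370, 11123, 10066 and 11967 on the arrays in order and Cox7a2 19254, 17773, 15466, 15648 and 18512.

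Creatine kinases ran from Ckmt2 at rank 20 over Ckm at 573 and the brain form Ckb at 1169 to Ckmt1 at 7238. Slc25a4 stood over its widely used relative Slc25a5 at 867, and Fabp3, the heart fatty acid binding protein, at rank 55 over Fabp4 of fat and endothelium at 2955. Glucose entry is served by Slc2a4, the insulin sensitive transporter, at rank 408 and the basal transporter Slc2a1 at 7655. The hexokinases were close, Hk2 at 395 with a geometric mean of 4018 and Hk1 at 504 with 3237, and their values overlapped between arrays.

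Further down glycolysis the muscle members Pfkm (155), Aldoa (39), Eno3 (56) and Pgam2 (178) ranked above Pfkl (1112), Pfkp (3552), Aldoc (8266), Eno2 (7503) and Pgam1 (1144). Ldha at rank 88 and Ldhb, the form typical of heart, at 138 were both bright. Germ cell forms marked the other end: Pgk2 was at the floor on all 5 arrays and Ldhc on all but FVB female 1 and 2. Pdk4, the kinase that holds pyruvate dehydrogenase back when fat is burned, ranked 277 and read 5832, 4497, 4784, 5263 and 10238 on the arrays in order. Male 3 was the highest for Pdk4 and the other 4 lay close together, while Pdk1 ranked 3200 and Pdk3 8276.

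The pathway lists put these genes into context. Of 67 genes of the respiratory chain and ATP synthase 52 lay in the brightest 5% and 36 in the brightest 1%, against 509 and 98 of all 8251 genes. Their median rank was 112 and that of all genes 5152. By complex 24 of 29 genes of complex I, 12 of 13 of complexes II and III, 8 of 12 of complex IV and 8 of 13 of ATP synthase were in the brightest 5%. Members at the dim end, such as Cox5a at rank 9860 and Ndufa12 at 10644, are core or accessory subunits too.

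The fuel pathways that feed the chain also had bright members. In the brightest 5% were 16 of 20 genes of the tricarboxylic acid cycle, led by Mdh2 (rank 33), Sdhb and Pdha1, and 12 of 17 of glycolysis. For fatty acid oxidation it was 13 of 24, led by Lpl, which frees fatty acids from lipoproteins (rank 43), Fabp3 and Hadhb (70). Acadvl, the enzyme for very long chains, was at the floor on all but FVB female 1 and 2. Of 32 ribosomal protein genes 18 lay in the brightest 5%, from Rpl41 at rank 15 down to the floor.

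The cell types behind the signal were looked at through marker lists. Of 11 ventricular muscle markers 10 lay in the brightest 5% and 9 in the brightest 1%, with Casq2 alone outside the former, so the defining markers of the labelled tissue are present. Of 7 atrial markers 0 lay in the brightest 5%, with Myl4, Myl7 and Nppa in the brightest 10% (42.9% against 12.3% of all genes). Of all genes 6.17% lay in the brightest 5%, so 0 of 7 does not set this list apart. Fibroblast markers followed with 4 of 10 in the brightest 5%, led by the matrix gene Dcn at rank 49 and Col1a1 at 337, and endothelial markers with 2 of 10, Eng (353) and Aqp1 (448). Bulk tissue cannot tell fewer cells of a type from less RNA per cell.

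Blood and immune markers were uneven. Hba-a1 and Hbb-b2 ranked 11 and 50, while Slc4a1, a membrane protein of red cells, ranked 5798. Of 12 macrophage markers 0 lay in the brightest 5%, C1qa being the brightest at 1007. With 6.17% of all genes there, so short a list is not set apart by this. The median rank of the list was 3566 against 5152 for all genes, and 10 of 12 were above the floor on all 5 arrays (83.3% against 72.6%). Of 9 T cell markers 1, Cd4, was above the floor on all 5 arrays (11.1% against 72.6% of all genes). On the 4 arrays other than FVB female 1 and 2, 6 were at the floor, as were 1001 of all 8251 genes. Cell cycle genes were dim as a list, with a median rank of 7123 against 5152 for all genes, Pcna being the brightest at 2487. In the brightest 5% were 0 of 23, against 6.17% of all genes.

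**Figure D4:**
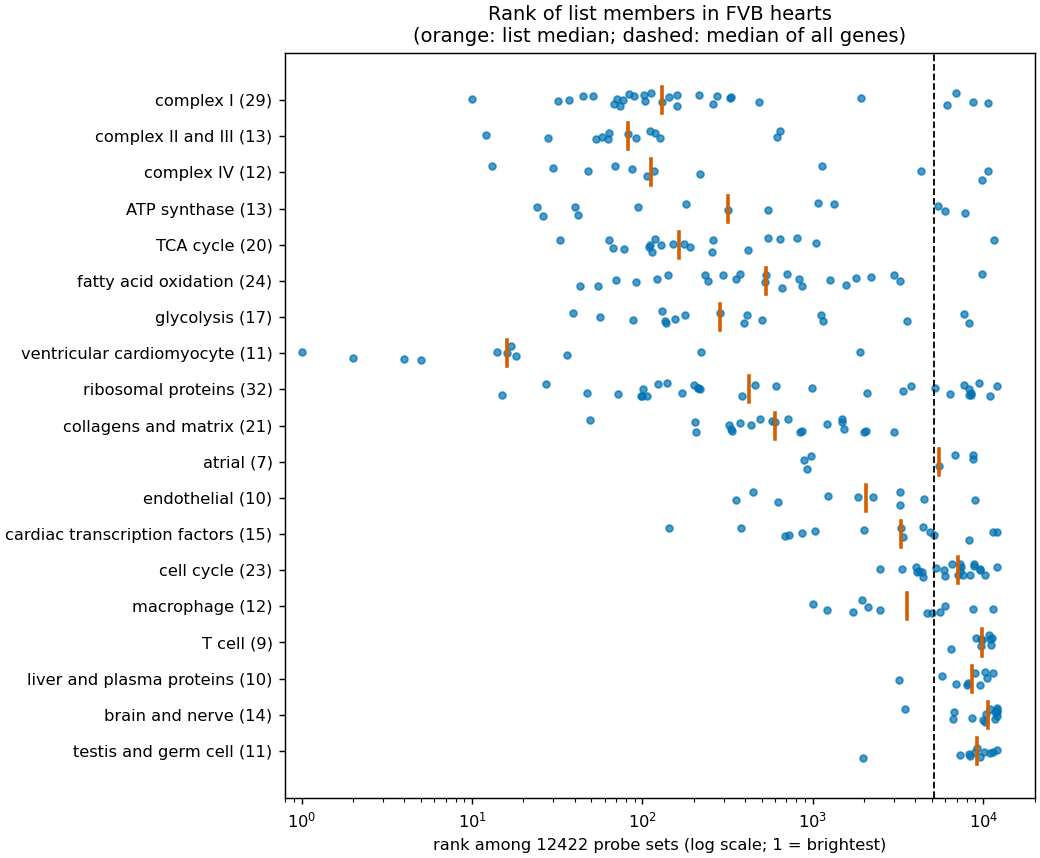
Rank among 12422 probe sets (log axis, 1 = brightest) of the members of 19 lists in FVB hearts; each point is a gene, orange bars are list medians, the dashed line the median rank of all genes (5152), and the numbers in brackets the genes measured. Respiratory chain and ventricular lists lie at the left and lists of other tissues at the right.

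What lay near background depended on the array that stands apart. Of 12422 probe sets 647 (5.21%) were at the floor on all 5 arrays, and 2205 (17.8%) on the 4 arrays other than FVB female 1 and 2. Above the floor on all arrays were 8004 (64.4%) and 8087 (65.1%). The highest of the Bacillus and yeast controls read 260 on FVB female 1 and 2 and 54.4 to 71.2 on the others, above the floor of 44.9. When the floor was set at each array's own highest control, 2868 probe sets lay at or below it on all 5.

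Markers of other organs gathered there. Of 68 markers of liver, brain, pancreas, lung, kidney, germ cells, eye and skin 0 lay in the brightest 5% (against 6.17% of all genes). Above the floor on all 5 arrays were 20 (29.4% against 72.6% of all genes), and 28 were at the floor on the 4 arrays, as were 1001 of all 8251 genes. The neurofilament genes Nefl and Nefm, the synaptic gene Syt1 and Gad2, which makes the transmitter GABA, were at the floor on all 5. Of the 68 markers 62 read higher on FVB female 1 and 2 than on each of the other 4, as did 3700 of all 8251 genes. Other dim lists did the same, with 8 of 9 T cell markers and 10 of 11 of neutrophils and mast cells. The brightest of the 68 were Crybb2, a lens crystallin gene, at rank 1847 and Tnp1 of sperm cells at 1958.

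Cardiac transcription factors ranked above the median of all genes. Their median rank was 3285 against 5152, and of 15 measured 2 lay in the brightest 5% (13.3% against 6.17% of all genes), 6 in the brightest 10% (against 12.3% of all genes), and 13 were above the floor on all 5 arrays. Hopx ranked 144, Mef2d 379, Nkx2-5 1032 and Gata4 3285. Isl1, a factor of heart progenitors, was at the floor on all 5 arrays.

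Against the other 4 FVB arrays, FVB female 1 and 2 read higher than all of them for 6221 probe sets and lower for 3039. It lay beyond them by over 1 on the log2 scale for 1921 probe sets upward and 440 downward. For each of the other 4 arrays the same count was 5 to 32 upward and 27 to 58 downward. The lists moved unevenly: of 21 collagen and matrix genes 17 read lower on it than on the other 4 and 0 higher. Of 67 respiratory chain genes 20 read higher and 17 lower. Of all 8251 genes 3700 read higher and 2373 lower, so the respiratory share lower is near that of all genes. Its Actb 3′ to 5′ signal ratio was 1.97, above the range of 1.29 to 1.87 on the others. Its Gapdh ratio was 1.03, within their range of 0.97 to 1.18.

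Among the genes above the floor on all 5 arrays, the one with the largest spread over the other 4 was Myl4, the atrial light chain, followed by Myl7 (SD 1.44 and 1.32 on the log2 scale). Myl4 read 1485 on female 3, 1115 on male 1, 917 on male 2 and 8084 on male 3, and Myl7 1451, 1250, 844 and 6786. Both, and Nppa with 1888, 1120, 1034 and 4322, were highest on male 3. Of the other 4 atrial markers Dkk3 was also highest on male 3, by less, with 251, 216, 169 and 312. Male 3 was not the highest for Sln, with 45.6, 55.3, 89.8 and 73.7, for Gja5, with 148, 206, 114 and 153, or for Bmp10, which was highest on female 3 with 71.9. The summed signal of the 7 atrial markers was 0.20% of the total on male 3 and 0.04 to 0.08% on the other FVB arrays, most of it from Myl4, Myl7 and Nppa. The part of atrial tissue in this difference was not tested.

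Also among the most variable was Mest, an imprinted gene of growing tissue, which read 134 on female 3, 612 on male 1, 649 on male 2 and 212 on male 3. Male 1 and male 2 were the higher pair for Mest, and for the growth factor gene Igf2, with 4018, 5600, 6036 and 4035. The same held for the proliferation gene Mki67, with 25.2, 183, 251 and 59.9, the first of them below the floor. The median signal of the 23 cell cycle genes was 135, 171, 182 and 117 on these arrays and 207 on FVB female 1 and 2. These genes were named after their values were seen, apart from Mest. The remaining 7 of the 10 most variable genes, Kcnj11, Cyp2c39, Prp2, Tradd, Rab3a, Hltf and Olfr93, include a subunit of the ATP-sensitive potassium channel, Kcnj11.

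The sex comparison asked whether FVB hearts of the 2 titles differ, and it rests on 2 distinct female arrays, 1 of them the array that stands apart. Limma with Benjamini-Hochberg adjustment over 7453 probe sets called 78 (1.05%), 38 higher in females (0.51%) and 40 lower (0.537%). Without FVB female 1 and 2 it called 4, without female 3 2081, and without male 1 14 or without male 2 8. Without the arrays titled male 1 and male 2 it called 13, which rests on a lone male array, and without these and FVB female 1 and 2 it called 15, which rests on 1 array of each sex. A lone array was assumed there to vary like the arrays of the other groups. With array weights or only the FVB groups in the fit it called 0, with 532 and 727 probe sets at an unadjusted p under 0.05. Of the 10 genes of largest called difference, Cd53, a leukocyte surface protein gene, had the smallest adjusted p in limma (0.0037). It read 69.3 and 39.2 on the female arrays and 167, 187 and 172 on the male arrays, a difference of -1.65 ± 0.22 (SE) on the log2 scale.

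The genes called higher in the arrays titled male by the largest difference were H2-K2, Ctla2b, Flt1, Cd53 and Klf2 (log2 differences, female minus male, from -2.03 to -1.64), among them Flt1, a VEGF receptor of endothelium. Those called higher in females were Tradd, H2bc22, Plxna1, Igha and Kcnj11 (1.91 to 2.57). Of the 3 arrays titled male 2 carry Xist signal. Without these 2 Xist differed by 5.11 ± 0.43 and Eif2s3y by -2.92 ± 0.40. Both arrays were left out for their readings of sex-linked genes, so this outcome followed from the choice. In the same fit Cd53 differed by -1.62 ± 0.31 and H2-K2 by -1.52 ± 0.62, but a lone male array cannot show the spread within its title. Without FVB female 1 and 2 as well, which leaves 1 array of each title, Cd53 differed by -1.94 ± 0.31 and H2-K2 by -0.37 ± 0.36. With the replicate number as a block 1 of the 10 genes was called, Cd53 (limma adjusted p = 0.0098). Over all alternatives Cd53 kept its call under 14 of 18 and each of the other 9 genes under 7 to 9 of 17 or 18. H2-K2 read 489 on FVB female 1 and 2 and 2380 on female 3, the former being the lowest of the 5 arrays. With all 5 arrays Xist itself was not called (log2 difference 1.49 ± 1.07, SE, limma adjusted p = 0.42), nor was Eif2s3y (-1.63 ± 0.57, limma adjusted p = 0.135).

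The comparison with transgenic hearts of 3 weeks asks which of the FVB levels differ in hearts with the TNF-alpha transgene. The bright end was flatter in transgenic hearts: the brightest 100 probe sets held 17.0% ± 2.11 of the signal (SD, n = 6) against 21.5% ± 2.27 in FVB hearts (SD, n = 5). The ranges were 14.1 to 19.7% and 19.01 to 24.0% (exact permutation test, two-sided, p = 0.013, adjusted over 5 array measures 0.0325). Without FVB female 1 and 2 the FVB mean was 21.2% (exact p = 0.0286, adjusted 0.0635), and without male 1 and male 2 it was 23.1% ± 0.86 (SD, n = 3; exact p = 0.0238, the smallest this design allows, adjusted 0.0794). Neither adjusted value passes 0.05. The Actb 3′ to 5′ ratio, a measure of RNA quality, was also higher in FVB hearts, 1.71 ± 0.26 (SD, n = 5) against 1.26 ± 0.10 (SD, n = 6; exact p = 0.00866, adjusted 0.0325; without FVB female 1 and 2, 1.65, exact p = 0.019, adjusted 0.0635; without male 1 and male 2, 1.64, exact p = 0.0476, adjusted 0.0794). The same ratio for Gapdh overlapped, with 0.97 to 1.18 on the FVB arrays and 0.88 to 1.14 on the transgenic arrays, and was not compared by a test. The part of RNA quality in the differences below was not tested.

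Differences were computed with the signal as deposited and after quantile normalisation, which gives each array the same distribution, and both are given where the call or the size depends on it. Over the 100 probe sets of highest mean the median difference, transgenic minus FVB, was -0.51 on the log2 scale as deposited and -0.06 after quantile normalisation, and over all 7453 tested it was -0.01 and -0.04. Limma called 3476 of 7453 probe sets (46.6%) as deposited, 1843 higher (24.7%) and 1633 lower (21.9%) in transgenic hearts. The filter on low signal took the mean over all 17 distinct arrays, so a gene dim in FVB hearts could pass through its signal in transgenic hearts. Of 189 isoform family genes 137 passed this filter and were tested. Of these 28 were called higher and 75 lower, with a median difference of -0.66 against 0.01 over all genes. After quantile normalisation, with 48.7% of all probe sets called, 23.5% higher and 25.2% lower, it was 27 and 68, with -0.45 against -0.02. Without FVB female 1 and 2, male 1 and male 2, which leaves 2 FVB arrays, limma called 2655 probe sets (35.6%), 1549 higher (20.8%) and 1106 lower (14.8%), and, of the family genes, 23 higher and 63 lower.

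The position of each list among an array's brightest 1% does not depend on the scaling of the array. Of the 67 respiratory chain and ATP synthase genes 33 to 36 were there on the FVB arrays and 8 to 21 on the 6 transgenic arrays. For the tricarboxylic acid cycle it was 6 to 9 and 1 to 2. For ribosomal protein genes it was 7 to 9 and 11 to 14, and for the contractile families 9 to 11 and 10 to 12. The ranges of the first 3 lists do not overlap between FVB and transgenic arrays and those of the last do. The brightest 1% holds 124 probe sets on each array, so places that some genes lose are filled by others. The counts of the lists are thus not independent, and how often lists in general do not overlap is not given here. Of 23 ribosomal protein genes tested limma called 7 higher (30.4% against 24.7% of all probe sets) and 2 lower (8.7% against 21.9%). After quantile normalisation it was 14 (60.9% against 23.5%) and 2 (8.7% against 25.2%). Their median difference was 0.16 as deposited, 0.40 after quantile normalisation and -0.03 without FVB female 1 and 2, male 1 and male 2. In limma 56 of 61 respiratory chain genes tested were called lower and 0 higher (21.9% of all probe sets were called lower), 55 of 61 after quantile normalisation and 52 of 61 without FVB female 1 and 2, male 1 and male 2.

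Of 47 contractile family genes tested 13 (27.7%) were called higher and 19 (40.4%) lower in transgenic hearts, against 24.7% and 21.9% of all probe sets. After quantile normalisation it was 12 and 14 (25.5% and 29.8%, against 23.5% and 25.2%), near the background in both directions, and without FVB female 1 and 2, male 1 and male 2 it was 11 and 15 (23.4% and 31.9%, against 20.8% and 14.8%). Myh6 differed by -0.84 ± 0.19 (SE; limma adjusted p = 0.0021) as deposited but by -0.05 ± 0.10 (adjusted p = 0.71) after quantile normalisation. Myh7, the beta chain, rose by 1.22 ± 0.21 as deposited and by 1.63 ± 0.15 after quantile normalisation, and kept its call under 24 of 24 alternatives. Myl2, Myl3 and Actc1, like Myh6, lost their call after quantile normalisation (limma adjusted p = 0.28, 0.10 and 0.74). The troponins kept theirs: Tnni3 differed by -1.09 ± 0.19 and -0.37 ± 0.10 in the 2 scalings (limma adjusted p = 0.00024 and 0.0072), and Tnnt2 and Tnnc1 also fell in both.

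Myh9, of non-muscle cells, had a fitted mean signal of 1343 in FVB and 3900 in transgenic hearts, with the sexes weighted equally, and its values did not overlap (1.54 ± 0.23, limma adjusted p = 5.5e-05). Acta2 of smooth muscle rose by 1.19 ± 0.15, and the alpha-actinins Actn1 and Actn4 of non-muscle cells by 1.62 ± 0.17 and 1.43 ± 0.16, while the muscle form Actn2 was not called (-0.49 ± 0.35, limma adjusted p = 0.26, and 0.12 ± 0.27 without FVB female 1 and 2). Tpm2 and Tpm4 rose by 1.30 ± 0.21 and 0.86 ± 0.13. These are genes of smooth muscle, fibroblasts and other cells as well, and of 12 macrophage markers 11 were tested, 8 called higher and 1 lower, against 24.7% and 21.9% of all probe sets; their part in the rise was not tested. Markers of macrophages had a median signal of 439 to 644 on the FVB arrays and 1484 to 2449 on the transgenic arrays. Of 10 fibroblast markers 3 were called higher and 3 lower, shares near those of all probe sets. Without FVB female 1 and 2, male 1 and male 2 the shares were no longer near, with more called lower than higher. The median difference of the 10 was -0.23 with all FVB arrays and -0.15 without these.

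Of 64 metabolic family genes tested 10 (15.6%) were called higher and 43 (67.2%) lower, against 24.7% and 21.9% of all probe sets. It was 9 and 41 after quantile normalisation (23.5% and 25.2% of all), and 8 and 39 without the same 3 FVB arrays (20.8% and 14.8% of all). Of 20 metabolic families with 2 or more members tested, 8 had members called in both directions, 11 had calls lower only and 1 higher only. Among the 8 are the enolases, glucose transporters and pyruvate dehydrogenase kinases. Their members called higher, Eno2, Slc2a1 and Pdk3, ranked beyond 7453, the number tested, in FVB hearts and passed the filter through transgenic arrays. Of the hexokinases Hk2 fell by 0.96 ± 0.12 while Hk1 rose by 1.11 ± 0.19, so that Hk1 had 3175 in FVB and 6875 in transgenic hearts. Of the phosphofructokinases Pfkm fell by 1.02 ± 0.18 and Pfkp rose by 1.09 ± 0.25, and of the enolases Eno3 fell by 1.03 ± 0.17 and Eno2 rose by 0.79 ± 0.26. Pgam2 fell by 0.65 ± 0.14 and Pgam1 rose by 0.64 ± 0.23. In each of these 4 families the muscle member fell and another member rose, in both scalings, though Pgam1 kept its call under 13 of 24 alternatives and Eno2 under 18 of 23. Without the same 3 FVB arrays the rises were 1.39 for Hk1, 1.18 for Eno2, 0.75 for Pfkp and 0.21 for Pgam1. Those of Pfkp and Pgam1 were smaller than with all FVB arrays and were not called. Pgam1 read low on FVB female 1 and 2 (710).

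Large differences lay with bright and with dim members. Pdk3, at 76.7 units in FVB hearts, rose by 2.92 ± 0.18, while Pdk4 fell by 2.10 ± 0.28, from 5709 to 1328 units. The basal glucose transporter Slc2a1, at 105 units, rose by 1.73 ± 0.22, while the insulin sensitive Slc2a4 fell by 1.69 ± 0.17, from 3849 to 1194. Pdk3 and Slc2a1 passed the filter through their signal in transgenic arrays, so their rises are a description and not a test result. Of the mitochondrial fatty acid entry enzymes Cpt1a, the liver form, rose by 0.93 ± 0.24 and Cpt2 fell by 1.29 ± 0.15. Acsl5 and Acsl4, which activate fatty acids, rose by 1.84 ± 0.16 and 1.04 ± 0.18. Other families moved one way or in part: the pyruvate kinases Pkm and Pklr both fell (by 0.72 ± 0.14 and 1.51 ± 0.36), as did the malate dehydrogenases Mdh1 and Mdh2 (by 0.82 ± 0.16 and 0.79 ± 0.16). The creatine kinases Ckm and Ckmt2 fell by 1.15 ± 0.19 and 0.92 ± 0.18, while Ckb was not called (-0.13 ± 0.20). Ldhb fell by 1.01 ± 0.18, while Ldha, called as deposited, was not called after quantile normalisation (limma adjusted p = 0.18). Pfkl and Pgk1 were not called. On FVB female 1 and 2 Pdk3 read 31.7 and was set to the floor, which lessens its difference.

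Cox6a2 fell by 1.16 ± 0.19 (0.62 ± 0.14 after quantile normalisation), while for Cox6a1 the difference was -0.12 ± 0.15 (0.04 ± 0.12 after quantile normalisation) and not called. Both Cox7a1 and Cox7a2 fell, by 1.33 ± 0.18 and 0.98 ± 0.16, and Cox8b fell by 1.73 ± 0.15. Of the natriuretic peptides both Nppa and Nppb rose, by 1.80 ± 0.33 and 0.95 ± 0.20, though the values of both overlapped between FVB and transgenic arrays. Corin, the protease that activates natriuretic peptides, fell by 1.86 ± 0.19 from 1613 to 445 units. Fkbp1b, a partner of the ryanodine receptor, rose by 0.73 ± 0.14, and Casq2 fell by 0.72 ± 0.17. A chosen part of the 137 family genes tested, 75 genes, was followed through all alternatives. Of these 69 were called, a larger share than the 75.2% of all 137. Of the 69, 53 kept their call and direction under each alternative, which does not describe the families as a whole. Casq2 was not among the 53 (-0.60 without FVB female 1 and 2, male 1 and male 2).

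**Figure D5:**
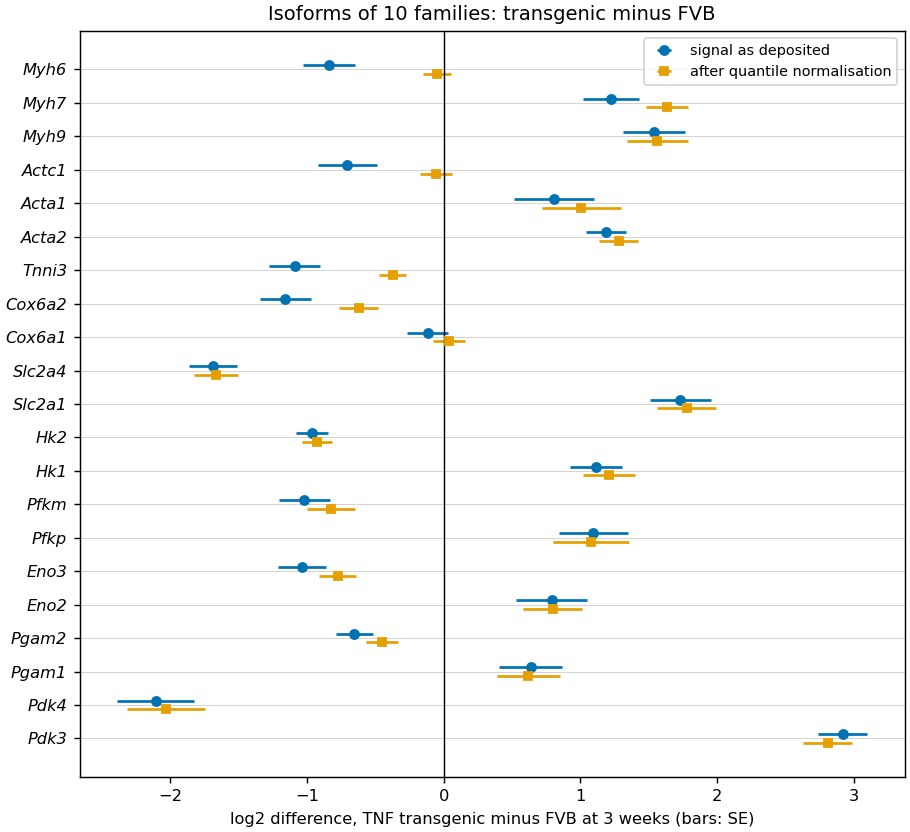
Log2 difference, transgenic minus FVB at 3 weeks, with its SE from limma, for members of 10 isoform families, with the signal as deposited (circles) and after quantile normalisation (squares). For Myh6 the difference is -0.84 as deposited and -0.05 after quantile normalisation, while for Hk1 and Hk2, Slc2a1 and Slc2a4 and Pdk3 and Pdk4 the members lie on opposite sides of 0 in both. Eno2, Slc2a1 and Pdk3 passed the filter through transgenic arrays.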

How the data were processed

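The authors deposited 1 table of Affymetrix U74Av2 signal intensity for 12488 probe sets and 18 columns. Each array's trimmed mean is near 500, and for the software, scaling and probe set summary the entry is: not given in the sources used here. After 66 controls were left out, 12422 probe sets remained, of which 10833 carry 1 gene symbol in GEO's platform annotation (which can be old), 396 several and 1193 none. Of the symbols 10821 were matched to the RefSeq gene table.

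Signals at or below 44.9 were set to that floor, the 25th percentile, before log2. Ranks use the mean log2 signal of the 5 distinct FVB arrays. Differences were tested with limma 3.58.1 (R 4.3.3; groups by genotype, age and sex, all 17 distinct arrays in the fit, the transgenic contrast averaged over the sexes) on the 60% of probe sets with the highest mean, 7453 of them, with Benjamini-Hochberg adjustment and a threshold of 0.05. Array measures were compared by exact permutation tests in scipy 1.17.1. The tests were checked on simulated data. Of 200 probe sets changed by 2 on the log2 scale 181 were recovered in the sex contrast and 199 in the transgenic contrast, with 11 and 15 false calls. Of 200 changed by 1 it was 75 and 142, with 4 and 12 false calls. The simulated noise was independent, with the same SD on every array. It holds no array that stands apart and no doubtful title, so it cannot show how the sex contrast behaves on these arrays.

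Named are the 30 genes of highest rank, members of the isoform families, up to 4 members of a list, the genes of largest gap on the array that stands apart, the 5 highest and 5 lowest called sex differences with sex-linked genes, and the 10 most variable genes. Genes named after their values were seen are given as such or serve as examples of dim probe sets. The members and lists were chosen with earlier results of these data known. Alternatives were the scaling, the floor, the filter, array weights, the block and leaving out arrays. The number of arrays limits the precision.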

Additional observations from a re-analysis of the deposited data

Results flagged for a closer look

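On 2 of 6 array measures looked at, 1 FVB array lay far from the rest of its 5, and it was FVB female 1 and 2 both times: 7.47% of its probe sets were at the floor, and its Bacillus and yeast controls had a median of 81.1. Chance sets about 1 in 20 groups apart in this way. Of 132 genes looked at, 23 had an array set apart, in 21 by FVB female 1 and 2. Among isoform family genes it read low for Actg1 (7291) and Pgam1 (710) and high for Casq2 (1310).

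The other 18 were among 20 genes chosen because this array lay farthest from the other 4, so their being set apart follows from the choice. Among the genes not chosen in this way the share set apart was near the 1 in 20 of chance. Its signal was high for Hoxd10 (1211), Cryl1 (6500), Alox12b (540), Tcea2 (4689), Cit (490), Mucl1 (539), Ephb6 (3152), Htr1b (987), Gapdhs (1131) and Rps13 (1178). It was low for Sfpq (48.5), Pam16 (133), Aqp4 (106), Pea15a (162), Col4a5 (58.2), Lsm1 (50.8), Ctsc (54.3) and 2610301B20Rik (70.4). Hoxd10, a body axis gene, lay 4.35 above the nearest other FVB array on the log2 scale, and Sfpq, a splicing factor gene, differed from it by -3.19. Among those high on it are genes of testis (Gapdhs), skin (Alox12b) and nerve cells (Htr1b), beside Rps13 of the ribosome.

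Another array was set apart for 2 genes. Xist read 5.9 on male 3, and Hltf, a chromatin remodelling gene, read 48.4 on male 1.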

How the results depend on the processing

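The FVB signal level, taken as the median log2 signal of the 30 brightest genes, was 14.70 and became 14.36 after quantile normalisation, and 14.62 to 14.80 with 1 array left out. The share of FVB signal in the 100 brightest probe sets, 21.5%, became 18.96% after quantile normalisation and 20.9 to 22.2% with 1 array left out. The 647 probe sets at the floor on all FVB arrays became 2205 without FVB female 1 and 2, 1517 after quantile normalisation, 2893 with the floor at the 40th percentile and 2868 with it at each array's highest control, and 662 to 2205 with 1 array left out. The 78 sex calls ranged from 4 to 2081 with 1 array left out (a lone array of a sex, here and below, is assumed to vary like the other groups). They became 0 with array weights and 0 with only the FVB groups in the fit, 1478 with both identical columns kept, 47 with the brightest 40% tested, 216 with a common median, 48 with log2 of signal plus 50, 312 without a filter and 148 after quantile normalisation. With arrays left out by a choice made after seeing the data they became 13 (male 1 and male 2) and 15 (these and FVB female 1 and 2). Of the sex calls 48.7% were higher in females, but 17.6% with a common median, which moved the median difference of all probe sets to -0.28, 26.4% after quantile normalisation and 73.7% without a filter.

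Counts of transgenic calls, in all and of family and respiratory chain genes, stayed within 1.5 times under each alternative run. With 1 array left out they were 3032 to 3814. The split moved more: the 1843 higher and 1633 lower calls became 1423 and 1025 with array weights and 1891 and 2040 without a filter, where lower calls outnumbered higher ones. For 75 family genes, a chosen part of those tested, 1792 values were followed. Of these 1726 kept their direction and side of the threshold, 62 lost their call and 1 gained one. The other 3, none of them called, changed sign: Cox6a1 to 0.038 after quantile normalisation, Actn2 to 0.12 without FVB female 1 and 2 (from -1.10 to 0.12 with 1 array left out), and Ckb to 0.020 without transgenic female 1 (from -0.26 to 0.020). Of 210 values for the 12 named genes of the sex contrast 84 lost their call and 1 changed sign, Xist to -0.32 without male 3 (from -0.32 to 2.64 with 1 array left out). The replicate numbers were not taken to pair the arrays: deviations of same-numbered FVB and transgenic arrays correlated at -0.06 and -0.08 in females and at 0.24, 0.19 and -0.19 in males. With the replicate number as a block the sex calls became 2 and the transgenic calls 3328, and all 69 called genes among the 75 followed kept their call. The cause of these changes was not tested.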
